A study of Arabidopsis thaliana with 26 samples.

Results

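The genes described here are 10 cell division genes of Arabidopsis thaliana, picked by gene ID out of 33602 IDs counted in each library. They are the mitotic B-type cyclins CYCB1;1 (AT4G37490), CYCB1;2 (AT5G06150) and CYCB2;3 (AT1G20610), the anaphase activators CDC20.1 (AT4G33270) and CDC20.2 (AT4G33260), the B-type cyclin-dependent kinases CDKB1;1 (AT3G54180), CDKB1;2 (AT2G38620) and CDKB2;1 (AT1G76540), the replication clamp PCNA1 (AT1G07370) and the cytokinesis syntaxin KNOLLE (AT1G08560, listed as SYP111 in RefSeq). All 10 passed the filter on low counts and were tested, each with at least 61 counts in every library. The plants were whole seedlings of the ecotype Col-0, raised for 7 days at 22 °C in uninterrupted growth light (60 µmol per m2 per s) and then either left there or moved to high light (1200 µmol per m2 per s) at a leaf temperature of 22 °C. Both treatments were sampled at 0.5, 6, 12, 24, 48 and 72 h, and a recovery group was returned to growth light for 14 h after 72 h of high light. Each of the 13 groups had 2 libraries, and each library came from 25 pooled plants. Separate cultures are not stated for the 2 libraries of a group. The p-values therefore measure the spread between these libraries only, and part of it may be technical.

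Plant cells enter mitosis when cyclin-dependent kinases are bound by A-type and B-type cyclins, and the B-type kinases are a plant class whose transcripts peak from late S phase to mitosis. CDC20 proteins then switch on the anaphase-promoting complex, a ubiquitin ligase that marks cyclins for destruction, and KNOLLE drives the fusion of vesicles that build the new cell plate. PCNA1 acts earlier, as the ring that holds DNA polymerase on its template in S phase. In a young seedling these genes are expressed mainly in the root and shoot meristems, young leaves and the stomatal lineage, so their level in whole-seedling RNA reads from a small part of the plant.

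Transcripts of many mitotic genes are controlled by MYB3R transcription factors, which bind the M-phase-specific activator (MSA) element, whose core letters are AACGG. The upstream windows of the 3 B-type cyclins are shown because they hold the most matches to that core among the 10 genes. Each window is the 300 bases before the annotated gene start, read on the gene's own strand from the RefSeq genome TAIR10.1, and capitals mark AACGG or its reverse complement CCGTT. The windows lie at chr4:17624309-17624608, chr5:1861704-1862003 and chr1:7137829-7138128 for CYCB1;1, CYCB1;2 and CYCB2;3, all on the minus strand.
CYCB1;1: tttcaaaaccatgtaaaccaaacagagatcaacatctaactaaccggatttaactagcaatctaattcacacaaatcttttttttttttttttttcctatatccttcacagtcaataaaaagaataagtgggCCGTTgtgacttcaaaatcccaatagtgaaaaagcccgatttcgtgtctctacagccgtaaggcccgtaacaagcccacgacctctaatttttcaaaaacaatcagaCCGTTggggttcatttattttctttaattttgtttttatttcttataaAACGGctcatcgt
CYCB1;2: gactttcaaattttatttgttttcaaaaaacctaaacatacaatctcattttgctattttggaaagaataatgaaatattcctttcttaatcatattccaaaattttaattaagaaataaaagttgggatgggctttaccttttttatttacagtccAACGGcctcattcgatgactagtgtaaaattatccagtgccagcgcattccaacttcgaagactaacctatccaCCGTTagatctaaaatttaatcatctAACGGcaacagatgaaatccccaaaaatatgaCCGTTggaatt
CYCB2;3: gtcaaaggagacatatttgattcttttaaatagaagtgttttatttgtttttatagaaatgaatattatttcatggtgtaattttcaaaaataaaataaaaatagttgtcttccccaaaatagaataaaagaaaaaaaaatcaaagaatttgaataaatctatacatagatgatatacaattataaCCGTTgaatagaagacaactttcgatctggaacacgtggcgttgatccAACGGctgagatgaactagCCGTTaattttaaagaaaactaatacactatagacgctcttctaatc
In these windows CYCB1;2 had 4 matches, at 11, 43, 69 and 143 bases before the gene start. CYCB1;1 had 3, at 13, 61 and 168 bases, and CYCB2;3 had 3, at 47, 66 and 114 bases. KNOLLE had 1 match at 12 bases and CDC20.1 had 1 at 278 bases, which made 12 matches in 5 of the 10 windows. Searched on both strands in the same way, 23.4% of 27443 windows of protein-coding genes held the core, and 4.53% held 2 or more. The E2F site, which is known from S-phase genes and was searched on both strands as TTTCCCGC, TTTGCCGC, TTTCGCGC and TTTGGCGC, was in 0 of the 10 windows and in 1.57% of all windows. Neither motif's letters contain the other's. The windows of CDC20.1, CDKB1;1, CDKB2;1 and PCNA1 overlap a neighbouring annotated gene, by 104, 213, 194 and 187 bases. The CDC20.1 match lies in the outer 104 bases of its window, so it may fall inside that neighbour. A match is a description of the letters in these windows.

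Total counts ran from 13637677 to 29697279 per library, and replicate libraries correlated across tested genes at r from 0.9884 to 0.9944 on the log2 scale. Levels are given as CPM over the tested genes after TMM scaling, with the value of replicate 1 before that of replicate 2. Log2 fold changes are from edgeR's quasi-likelihood test and are given ± SE with n = 2 libraries per group, and a gene is called higher or lower where its p, adjusted over all 21449 tested genes, is below 0.05. In growth light at 0.5 h, replicate 2 lay below replicate 1 for all 10 genes, and their summed level was 174.2 CPM against 241 CPM. The counts and profiles of the 10 genes that use this group are therefore given with and without that library. The same holds for most of the list results that the text describes at 0.5 h. CDC20.1 and CDC20.2 lie next to each other and their coding sequences are 97.4% identical. Of 2048 words of 50 bases in the CDC20.1 transcript, 643 (31.4%) also occur in that of CDC20.2, so the split of reads between these neighbours is uncertain. No word of that length was shared between CDKB1;1 and CDKB1;2 or between CYCB1;1 and CYCB1;2.

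Most of the 10 genes were lower in high light than in growth light at 6 h and again from 24 h to 72 h, and none of them passed the test at 12 h. After 14 h of recovery 8 of them were above their level at 72 h of high light. At 6 h 8 of the 10 genes were called lower and the median log2 fold change was -0.57, where 18.2% of all tested genes were called lower and the median of all genes was 0.02. At 24 h 9 of the 10 were called lower with a median of -0.58, where 23.9% of all genes were called lower. At 48 h 6 of the 10 were lower with a median of -0.32, against 23% of all genes, and at 72 h 7 of the 10 were lower with a median of -0.55, against 22.3% of all genes. At 12 h the count was 0 in either direction by edgeR's quasi-likelihood test, 0 at an unadjusted p below 0.05 and 0 by DESeq2, although 45.2% of all genes were called at that time. Whole seedlings were used, so fewer dividing cells and less RNA per cell cannot be told apart in any of these results.

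**Figure D1:**
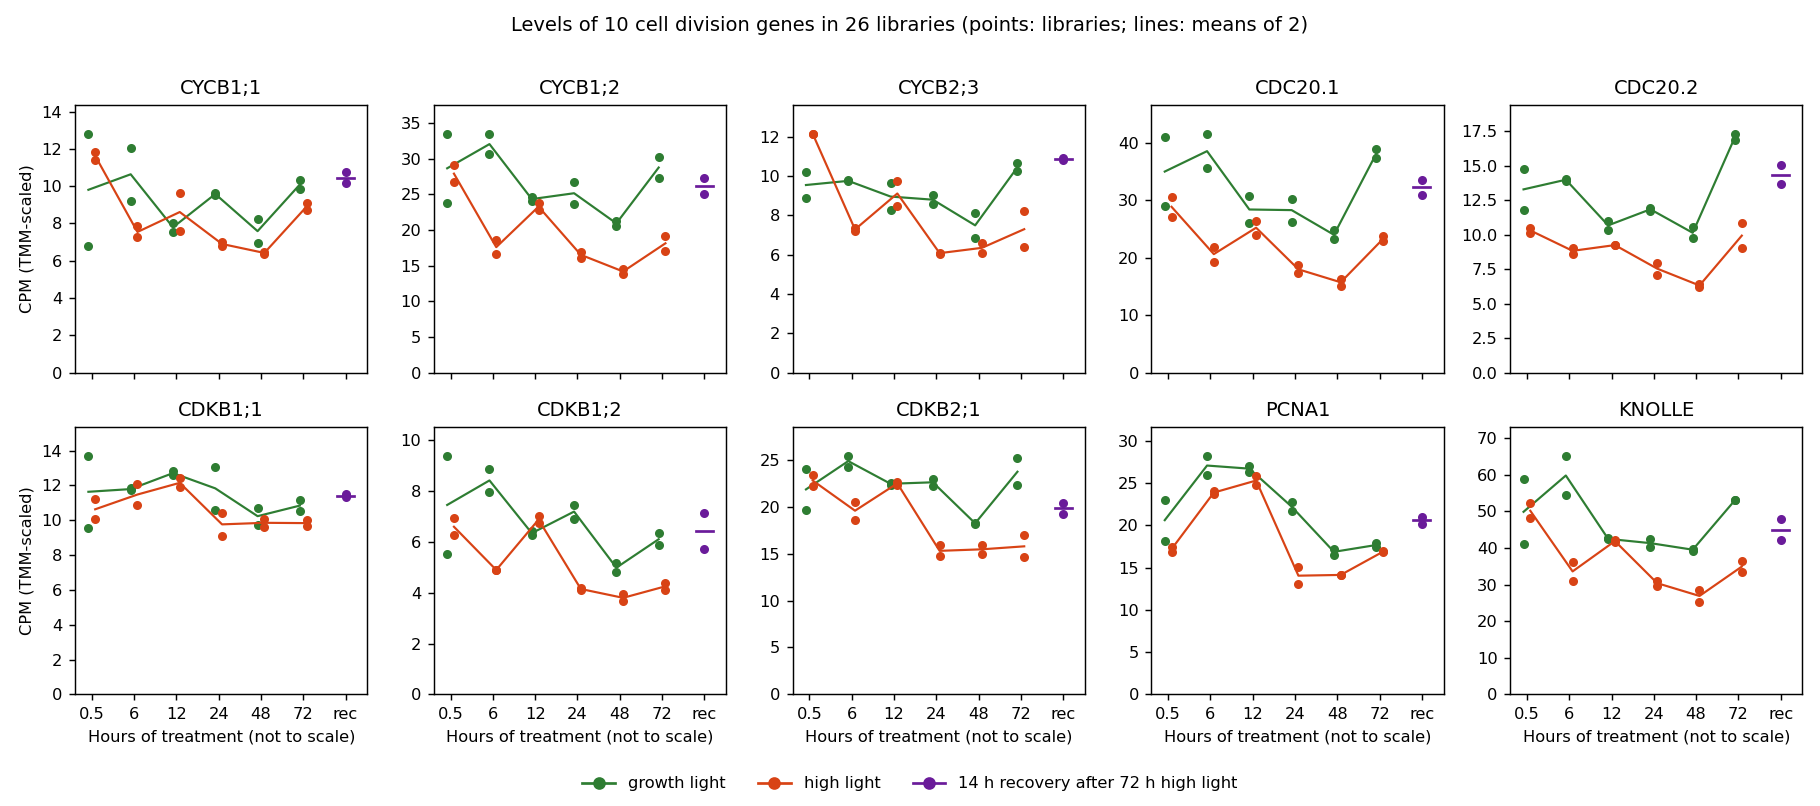
Level of each of the 10 genes in CPM (vertical axis, from 0) against hours of treatment (horizontal axis, not to scale), with growth light, high light and recovery in separate colours, points for libraries and lines for the means of 2. The high light line of KNOLLE drops at 6 h, meets the growth light line at 12 h and lies below it from 24 h to 72 h.

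The 3 B-type cyclins, which activate the kinases of mitosis, had their lowest group means at 24 or 48 h of high light. CYCB1;2 was at 30.6 and 33.5 CPM in growth light and 18.5 and 16.7 CPM in high light at 6 h. It was at 24.6 and 24.1 CPM in growth light and 22.7 and 23.8 CPM in high light at 12 h. The groups were far apart at 6 h, while at 12 h they lay close together without overlapping. At 24 h CYCB1;2 was at 26.7 and 23.6 CPM in growth light and 16.1 and 16.9 CPM in high light. Its log2 fold change was -0.86 ± 0.11 at 6 h (adjusted p = 1.81e-06), -0.06 ± 0.11 at 12 h (adjusted p = 0.669) and -0.61 ± 0.11 at 24 h (adjusted p = 0.00012). It was -0.56 ± 0.12 at 48 h and -0.67 ± 0.12 at 72 h, both past the test.

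CYCB2;3 was at 9.78 and 9.72 CPM in growth light and 7.35 and 7.21 CPM in high light at 6 h, a log2 fold change of -0.42 ± 0.12 (adjusted p = 0.00712). At 24 h it was at 9.02 and 8.57 CPM against 6.11 and 6.04 CPM (-0.53 ± 0.12, adjusted p = 0.00093). It was again lower than in growth light by the test at 72 h (-0.51 ± 0.13), and at 48 h its value was -0.24 ± 0.12 (adjusted p = 0.11). From 48 to 72 h its mean went from 6.35 to 7.29 CPM in high light and from 7.49 to 10.44 CPM in growth light. Without replicate 1 of high light at 72 h the 72 h value was -0.36 with an adjusted p of 0.0595. CYCB1;1, a cyclin whose transcript is also known to be induced by DNA damage, had the widest errors of the 3. At 6 h it was at 9.22 and 12.1 CPM in growth light and 7.84 and 7.25 CPM in high light, which gave -0.48 ± 0.18 (adjusted p = 0.0394). At 24 h it was at 9.62 and 9.54 CPM against 6.8 and 7 CPM (-0.47 ± 0.18, adjusted p = 0.0357). At both times the 2 groups did not overlap. The 6 h call was lost without replicate 2 of growth light (-0.29, adjusted p = 0.322) and without either high light library (adjusted p = 0.0753 and 0.16), and the 24 h call was lost without any 1 of the 4 libraries (adjusted p from 0.0903 to 0.124). At 48 h and 72 h CYCB1;1 had -0.24 ± 0.19 and -0.18 ± 0.19, neither past the test.

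CDC20.1 and CDC20.2, the activators of the anaphase-promoting complex, were lower in high light at 6, 24, 48 and 72 h. CDC20.1 was at 35.5 and 41.5 CPM in growth light and 21.9 and 19.3 CPM in high light at 6 h, 1.86-fold lower, with a log2 fold change of -0.90 ± 0.12 (adjusted p = 4.09e-06). At 72 h it was at 38.9 and 37.3 CPM against 23.7 and 22.8 CPM (-0.71 ± 0.13, adjusted p = 0.00011). Its values at 24 h and 48 h were -0.65 ± 0.13 and -0.61 ± 0.13. In all 4 of these comparisons both high light libraries lay below both growth light libraries. CDC20.2 was at 13.9 and 14.1 CPM in growth light and 9.08 and 8.6 CPM in high light at 6 h (-0.66 ± 0.10, adjusted p = 2.27e-05). At 72 h it was at 17.3 and 16.9 CPM against 10.8 and 9.06 CPM (-0.79 ± 0.11, adjusted p = 3.73e-06). The ratio of CDC20.2 to CDC20.1 in CPM stayed between 0.331 and 0.457 over the 26 libraries, and the shared sequence limits how far the pair can be read as separate genes.

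The 3 B-type kinases differed among themselves. CDKB1;2 was at 7.96 and 8.86 CPM in growth light and 4.88 and 4.91 CPM in high light at 6 h (-0.77 ± 0.16, adjusted p = 0.000524). At 24 h it was at 7.46 and 6.91 CPM against 4.19 and 4.09 CPM (-0.79 ± 0.17, adjusted p = 0.000389). At both times both high light libraries lay below both growth light libraries. At 12 h they lay slightly above them, at 6.73 and 7.01 CPM against 6.27 and 6.4 CPM (0.12 ± 0.16, adjusted p = 0.581). Its value was -0.39 ± 0.17 at 48 h, not past the test (adjusted p = 0.0682), and -0.52 ± 0.19 at 72 h (adjusted p = 0.0295). The 72 h call was lost without any 1 of the 4 libraries, with adjusted p from 0.0587 to 0.131.

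CDKB2;1, a kinase of the G2 to M transition, was at 24.3 and 25.4 CPM in growth light and 20.5 and 18.6 CPM in high light at 6 h (-0.34 ± 0.09, adjusted p = 0.00381). At 24 h it was at 22.9 and 22.2 CPM against 15.9 and 14.7 CPM (-0.56 ± 0.09, adjusted p = 2.23e-05). At 72 h it was at 25.1 and 22.3 CPM against 14.6 and 16.9 CPM (-0.58 ± 0.10, adjusted p = 4.4e-05). Both high light libraries were below both growth light libraries at these 3 times. The 6 h call was lost without replicate 2 of high light (-0.27, adjusted p = 0.056). The 48 h value of CDKB2;1, -0.24 ± 0.09 (adjusted p = 0.0387), was lost as a call without any 1 of the 4 libraries (adjusted p from 0.0599 to 0.191).

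CDKB1;1, a kinase known to restrain endoreduplication together with A2-type cyclins, passed the test in no comparison of high light with growth light. At 6 h it was at 11.8 and 11.8 CPM in growth light and 12.1 and 10.9 CPM in high light (-0.04 ± 0.13, adjusted p = 0.836). At 24 h it was at 13.1 and 10.6 CPM against 9.12 and 10.4 CPM (-0.28 ± 0.13, adjusted p = 0.0754). The 6 h groups overlapped and the 24 h groups nearly touched. Without replicate 2 of growth light at 24 h the value was -0.42 and past the test (adjusted p = 0.0231), and with upper-quartile factors it was -0.36 (adjusted p = 0.027). Its highest and lowest group means differed 1.3-fold over the 13 groups, the smallest such ratio of the 10 genes, where CDC20.2 had the largest, 2.7.

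PCNA1, the S-phase clamp, had another order in time than most of the mitotic genes. The kinase CDKB1;1 was the exception, with a profile over the 13 group means close to that of PCNA1 (Pearson r = 0.943). At 6 h it was at 25.9 and 28.2 CPM in growth light and 23.7 and 24 CPM in high light (-0.18 ± 0.09, adjusted p = 0.104), and this value passed the test with upper-quartile factors (-0.22, adjusted p = 0.0477). At 24 h it was at 22.8 and 21.7 CPM against 13 and 15.1 CPM, 1.58-fold lower (-0.66 ± 0.09, adjusted p = 2.17e-06). At 72 h it was at 17.4 and 18 CPM against 17 and 16.8 CPM (-0.07 ± 0.10, adjusted p = 0.613). Of the light effects on PCNA1, that at 24 h was the largest in size. At 48 h its value was -0.26 ± 0.09 (adjusted p = 0.0249), and this call was lost without replicate 2 of growth light (adjusted p = 0.137) or without either high light library (adjusted p = 0.082 and 0.0874).

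KNOLLE, the syntaxin of the cell plate, had the highest level of the 10 genes per kilobase of RefSeq transcript, from 19.4 CPM per kb at 48 h of high light to 43.1 CPM per kb at 6 h of growth light, and CDKB1;2 reached 2.64 and 5.85 CPM per kb in the same groups. At 6 h KNOLLE was at 54.3 and 65.2 CPM in growth light and 36.2 and 31 CPM in high light (-0.83 ± 0.12, adjusted p = 5.61e-06). At 12 h it was at 42.6 and 42.3 CPM against 42.1 and 41.6 CPM (-0.02 ± 0.12, adjusted p = 0.902). The groups stood far apart at 6 h, and at 12 h they differed by less than 1 SE. At 48 h it was at 39.3 and 39.7 CPM against 25.2 and 28.6 CPM (-0.56 ± 0.12, adjusted p = 0.000601). At 72 h it was at 53.1 and 53 CPM against 33.3 and 36.5 CPM (-0.60 ± 0.12, adjusted p = 0.000363), and at 24 h its value was -0.44 ± 0.12.

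**Figure D2:**
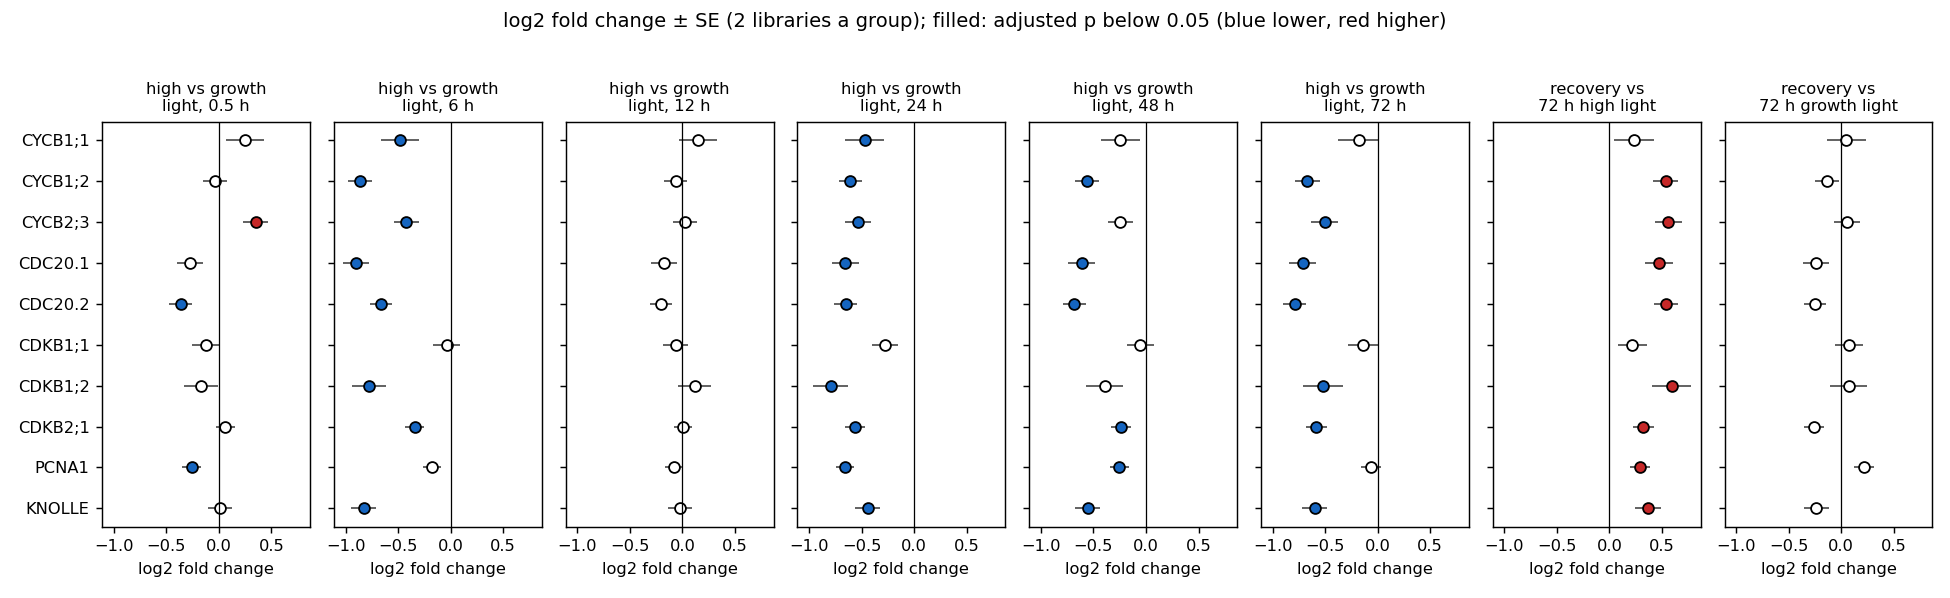
Log2 fold change ± SE (horizontal axis, n = 2 libraries per group) of the 10 genes (vertical axis) in the 6 comparisons of high light with growth light and the 2 of recovery, with filled points past the test, blue lower and red higher. Filled blue points stand at 6, 24, 48 and 72 h, none of the 10 is filled at 12 h, and 8 red points stand in recovery against 72 h of high light.

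At 0.5 h of high light few of the 10 genes differed from growth light. CYCB2;3 was called higher, at 12.1 and 12.1 CPM in high light and 10.2 and 8.86 CPM in growth light (0.35 ± 0.12, adjusted p = 0.0359). CDC20.2 was called lower, at 10.5 and 10.1 CPM against 14.8 and 11.8 CPM (-0.36 ± 0.11, adjusted p = 0.0148), and PCNA1 was called lower, at 16.9 and 17.5 CPM against 23 and 18.2 CPM (-0.26 ± 0.09, adjusted p = 0.0452). Of all tested genes 13.5% were called higher and 8.29% lower at this time. Without replicate 2 of growth light the counts were 0 higher and 5 lower, and CYCB2;3 had 0.25 with an adjusted p of 0.254. Without replicate 1 of growth light they were 2 higher and 0 lower, and CYCB1;1 had 0.77 with an adjusted p of 0.00144. Without either high light library at 0.5 h both counts were 0. The 0.5 h counts therefore turned on which libraries were kept.

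The changes of the light effect between neighbouring times were tested as differences of log2 fold changes. From 0.5 to 6 h the effect became lower for 6 of the 10 genes, where 14.8% of all genes had a lower effect. It was -0.84 ± 0.17 for KNOLLE (adjusted p = 0.000517) and -0.83 ± 0.16 for CYCB1;2 (adjusted p = 0.000374), and 0.08 ± 0.13 for PCNA1 (adjusted p = 0.673). The count was 3 without replicate 2 of growth light at 0.5 h, of growth light at 6 h or of high light at 0.5 h, and 8 without replicate 1 of growth light at 0.5 h. From 6 to 12 h the effect became higher for CYCB1;2, CDC20.1, CDKB1;2 and KNOLLE, 4 of the 10, where 3.93% of all genes had a higher effect. These 4 changes were 0.80 ± 0.16, 0.72 ± 0.17, 0.89 ± 0.23 and 0.81 ± 0.16, and the count was 2 without replicate 2 of growth light at 6 h or of high light at 12 h. From 12 to 24 h the effect became lower for 6 of the 10, where 7.58% of all genes had a lower effect. CDKB1;2 changed by -0.91 ± 0.23 (adjusted p = 0.00995), PCNA1 by -0.58 ± 0.12 (adjusted p = 0.0031) and CDKB2;1 by -0.57 ± 0.13 (adjusted p = 0.00487) and the count was 3 without replicate 2 of growth light at 12 h, replicate 1 of growth light at 24 h, replicate 2 of high light at 12 h or replicate 1 of high light at 24 h. From 24 to 48 h 1 of the 10, PCNA1, had a higher effect (0.40 ± 0.13, adjusted p = 0.0408), where 5% of all genes did, and the call was lost without any 1 library of those groups other than replicate 2 of high light at 24 h (adjusted p from 0.0578 to 0.193). From 48 to 72 h 0 of the 10 were past edgeR's test, with 1 at an unadjusted p below 0.05 and 0 by DESeq2, where 1.14% of all genes were called.

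The controls in growth light also moved with time. From 6 to 12 h CYCB1;2, CDC20.1, CDC20.2 and KNOLLE fell, 4 of the 10, where 5.73% of all genes were called lower, and KNOLLE went from 54.3 and 65.2 CPM to 42.6 and 42.3 CPM (-0.49 ± 0.12, adjusted p = 0.00595). From 48 to 72 h 6 of the 10 rose, where 2.44% of all genes were called higher, and CDC20.2 went from 10.5 and 9.75 CPM to 17.3 and 16.9 CPM (0.75 ± 0.10, adjusted p = 0.00115). These control shifts enter the light effects of the same times. Total counts in growth light were 24324813 and 26936142 at 48 h and 16994443 and 16132345 at 72 h. In high light they were 25171425 and 24798060 at 48 h and 13637677 and 17162530 at 72 h. A part of this difference in the changes from 48 to 72 h was not tested. The 6 to 12 h count was 0 without replicate 2 of growth light at 6 h and 1 without replicate 2 of growth light at 12 h, and the 48 to 72 h count was 1 to 2 with 1 of its 4 libraries left out. PCNA1 rose from 0.5 to 6 h, 1 of the 10 against 3.53% of all genes (0.39 ± 0.09, adjusted p = 0.00692), and fell from 12 to 24 h, 1 of the 10 against 7.35% (-0.27 ± 0.08, adjusted p = 0.0404). The 0.5 to 6 h count was 0 without replicate 2 of growth light at 0.5 h or at 6 h and 7 without replicate 1 at 0.5 h, and the 12 to 24 h count was 0 without any 1 library of those groups. From 24 to 48 h CDKB1;2, CDKB2;1 and PCNA1 fell, 3 of the 10 against 5.61% of all genes, and with any 1 of the 4 libraries left out the count was 0 to 1.

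Within high light the same genes were followed from each time to the next, in comparisons chosen after the values were seen. From 0.5 to 6 h 7 of the 10 fell, where 25.4% of all genes were called lower, and CYCB2;3 went from 12.1 and 12.1 CPM to 7.35 and 7.21 CPM (-0.74 ± 0.12, adjusted p = 1.43e-05). PCNA1 rose over the same hours, from 16.9 and 17.5 CPM to 23.7 and 24 CPM (0.47 ± 0.09, adjusted p = 0.000102), where 23.7% of all genes were called higher. PCNA1 was the 1 of the 10 called higher, below that share of all genes. Over these hours in high light the replication clamp and the mitotic cyclins moved in opposite directions. PCNA1 was also called higher over the same hours in growth light, and its light effect did not pass the test of change between them. From 6 to 12 h CYCB1;2 (0.40 ± 0.11) and CDKB1;2 (0.49 ± 0.16) rose, 2 of the 10 against 7.85% of all genes, and the count was 0 without replicate 2 of either group and 1 without replicate 1 of either. From 12 to 24 h 9 of the 10 fell, where 21.3% of all genes were called lower, and PCNA1 went from 24.8 and 25.8 CPM to 13 and 15.1 CPM (-0.85 ± 0.09, adjusted p = 1.45e-07). CDKB1;1 was among the 9, at -0.31 ± 0.12 (adjusted p = 0.0481). From 24 to 48 h 0 of the 10 passed edgeR's test, with 1 at an unadjusted p below 0.05 and 0 by DESeq2, where 35.2% of all genes were called. From 48 to 72 h CDC20.1, CDC20.2 and KNOLLE rose, 3 of the 10 against 6.63% of all genes, and the count was 1 without replicate 2 of high light at 48 h or replicate 1 at 72 h.

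After 14 h of recovery 8 of the 10 genes were above their level at 72 h of high light, where 18.6% of all genes were called higher, and the median of the 10 was 0.42. CYCB2;3 was at 6.39 and 8.2 CPM at 72 h of high light and 10.9 and 10.8 CPM in recovery (0.56 ± 0.13, adjusted p = 0.00141). CYCB1;2 went from 19.2 and 17.1 CPM to 25.1 and 27.3 CPM (0.54 ± 0.12, adjusted p = 0.00125). CDC20.2 went from 10.8 and 9.06 CPM to 15.1 and 13.7 CPM (0.54 ± 0.11, adjusted p = 0.000546). For these 3 genes the recovery libraries lay above both high light libraries and the call held with any 1 library left out. KNOLLE went from 33.3 and 36.5 CPM to 47.8 and 42.1 CPM (0.36 ± 0.12, adjusted p = 0.0252). The smallest value among the 8 called was that of PCNA1, 0.29 ± 0.10 (adjusted p = 0.0223). The count was 4 without replicate 1 of the 72 h high light group and 5 without any other 1 of the 4 libraries, and the calls lost were among CDC20.1, CDKB1;2, CDKB2;1, PCNA1 and KNOLLE. CYCB1;1 (0.23 ± 0.19) and CDKB1;1 (0.22 ± 0.14) did not pass the test.

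Against growth light at 72 h, 0 of the 10 recovery levels passed edgeR's test, 1 higher and 2 lower at an unadjusted p below 0.05 and 0 by DESeq2, where 11.6% of all genes were called. The values ranged from -0.26 ± 0.10 for CDKB2;1 to 0.22 ± 0.09 for PCNA1, so changes of this size or somewhat larger remain possible. KNOLLE was at 47.8 and 42.1 CPM in recovery and 53.1 and 53 CPM in growth light (-0.24 ± 0.12, adjusted p = 0.215). Fitted on the groups of the comparison alone, CDC20.1, CDKB2;1 and KNOLLE passed as lower. The recovery plants were also 14 h older than the 72 h plants, and this age cannot be told apart from recovery here. The recovery comparisons share the recovery libraries, and that with high light shares the 72 h high light libraries with the light effect at 72 h.

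Over the 13 groups the order of levels had few clear steps. For KNOLLE the order ran from 59.7 CPM at 6 h of growth light down to 26.9 CPM at 48 h of high light, and 6 of the 12 neighbouring pairs had libraries that did not overlap. CDC20.1 ran from 38.5 CPM at 6 h of growth light to 15.7 CPM at 48 h of high light, with 4 separate pairs. PCNA1 ran from 27.1 CPM at 6 h of growth light to 14.1 CPM at 24 h of high light, with 5 separate pairs, and CYCB1;2 from 32 CPM to 14.2 CPM between 6 h of growth light and 48 h of high light, also with 5. CYCB1;1 and CYCB2;3 were highest at 0.5 h of high light, at 11.6 and 12.1 CPM. Their lowest means were 6.42 CPM at 48 h and 6.08 CPM at 24 h of high light. CDC20.2 was highest at 72 h of growth light, at 17.1 CPM, and CDKB1;1 at 12 h of growth light, at 12.7 CPM. CDKB1;2 and CDKB2;1 were highest at 6 h of growth light, at 8.41 and 24.8 CPM. The lowest group mean was at 24 or 48 h of high light for each of the 10 genes. Without replicate 2 of growth light at 0.5 h that group, then a single library, became the highest for CYCB1;1, CYCB1;2, CDC20.1, CDKB1;1 and CDKB1;2. Without replicate 1 it became the lowest for CDKB1;1, and the lowest group of the other 9 genes was the same in both cases.

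Profiles over the 13 group means were most alike for CYCB1;2 and KNOLLE (Pearson r = 0.984) and least alike for CYCB1;1 and PCNA1 (r = 0.326), with CDKB1;1 and PCNA1 at r = 0.943. With the mean of the other 9 genes, CYCB1;2 had r = 0.966, CDKB1;1 had 0.684 and PCNA1 had 0.638. The 8 genes outside the 10 whose profiles were most like their mean profile, among 15319 tested genes with a mean of at least 5 CPM, were AT3G03130 (r = 0.983), AT5G66230, AT3G12870, BUBR1 (AT2G33560, the spindle checkpoint kinase homologue, r = 0.975), AT4G01730, AT5G44040, AT3G51280 and ATN (AT3G05330, r = 0.968). Of the 15319 genes, 103 had r above 0.9. Without replicate 2 of growth light at 0.5 h, 7 of these 8 genes were still among the top 8 and CDKB1;1 had r = 0.745 with the mean of the other 9. Without replicate 1, 6 of the 8 were, and CDKB1;1 had r = 0.626. The most and the least alike pairs were the same in both cases. All points of these correlations share the 26 libraries and their scaling, so they are descriptions over 13 groups.

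The wider cell cycle machinery was followed in 8 lists with 99 genes, grouped by function. Each count of list genes is set beside the share of all tested genes called in the same direction, and the median of all tested genes lay between -0.01 and 0.03 in the 6 light comparisons. At 6 h, where 18.2% of all genes were called lower and 22.9% higher, most calls in the lists of later cell cycle steps were lower. Of 13 other mitotic cyclins and CDKs 9 were lower, with a median of -0.51. CYCA2;3, an A-type cyclin, was at a mean of 14.7 CPM in high light against 26 CPM (-0.82 ± 0.11, adjusted p = 3.98e-06), and CYCB2;4 had -0.67 ± 0.12. Of 17 spindle and cytokinesis genes 15 were lower, with a median of -0.55. They included BUBR1 (-0.72 ± 0.18), TPX2, a spindle assembly factor (-0.64 ± 0.12), and HIK, the HINKEL kinesin of the cell plate (-0.64 ± 0.14). Of 10 genes of the anaphase-promoting complex and its regulators 5 were lower, among them CCS52B (-0.69 ± 0.11) and APC10 (-0.64 ± 0.11). In this list 2 were lower at 12 h, 4 at 24 h, 2 at 48 h and 3 at 72 h. Of all genes 21.1%, 23.9%, 23% and 22.3% were called lower at those times, so the 12, 48 and 72 h counts were near these shares. Of 14 DNA replication genes 1 was lower, TSO2, a ribonucleotide reductase subunit (-0.61 ± 0.10, adjusted p = 2.47e-05), and 1 was higher, RNR1, the large subunit (0.23, adjusted p = 0.0368).

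At 24 h 23.9% of all genes were called lower and 26% higher. Of the 14 replication genes 9 were lower, with a median of -0.36, among them CDT1B, a licensing factor (-0.61 ± 0.17), MCM6, a helicase subunit (-0.53 ± 0.10), and PCNA2, the second clamp gene (-0.51 ± 0.08, adjusted p = 1.41e-05). Between 12 and 24 h the light effect became lower for 6 of the 14, and between 6 and 24 h the difference was not tested. Of the 13 mitotic cyclins and CDKs 10 were lower (median -0.54), with CYCB1;3 at -0.71 ± 0.11 and CYCA1;1 at -0.60 ± 0.11. Of the 17 spindle and cytokinesis genes 11 were lower and 1 higher (median -0.46), with KINESIN-12B at -0.70 ± 0.13 and MAD2, a checkpoint protein, at -0.68 ± 0.12. At 12 h, where 21.1% of all genes were called lower and 24.1% higher, 1 of the 13 was lower and 1 higher, and of the 17, 2 were lower and 1 higher. Of the 14 replication genes 1 was higher at 12 h.

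At 72 h 7 of 13 mitotic cyclins and CDKs, 10 of 17 spindle and cytokinesis genes and 6 of 14 replication genes were lower, where 22.3% of all genes were called lower and 22.3% higher. CYCB1;4 had -0.74 ± 0.12, PLE, a microtubule bundling protein, -0.65 ± 0.14, and CDT1A -0.52 ± 0.11. TSO2 stood against them, at a mean of 170.9 CPM in high light and 94.6 CPM in growth light (0.85 ± 0.10, adjusted p = 3.84e-07). The D-type cyclins, which act at the entry into the cycle, were split, with 3 of 9 higher and 2 lower. CYCD3;3 had 1.02 ± 0.09 (adjusted p = 4.32e-09) and CYCD4;1 had 1.11 ± 0.20 (adjusted p = 0.000114). Of 16 CDK inhibitors 5 were higher and 4 lower. KRP6 had 0.92 ± 0.14, SIM, an inhibitor known to promote endoreduplication in trichomes, -0.75 ± 0.18, and KRP1 -0.61. For the D-type cyclins and the inhibitors the lower counts were near the share of all genes, and the higher counts were somewhat above it. At 48 h 6 of 13 mitotic cyclins and CDKs and 12 of 17 spindle and cytokinesis genes were lower, where 23% of all genes were called lower and 24.5% higher. Of the 14 replication genes 1 was lower and 1 higher at 48 h, with a median of -0.04, so their share of lower calls was below that of all genes. At this time TSO2 (0.55), CYCD4;1 (1.19) and KRP6 (1.03) were again higher.

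At 0.5 h, where 8.29% of all genes were called lower and 13.5% higher, 5 of 16 inhibitors were lower and 1 higher. KRP1 had -1.05 (adjusted p = 8.88e-07), SMR1 -0.99 (adjusted p = 4.15e-06) and KRP6 0.93 (adjusted p = 1.43e-05). These 3 calls held with either growth light library of that time left out, and the inhibitors had 3 lower and 2 higher without replicate 2 and 5 lower and 1 higher without replicate 1. Of 14 replication genes 4 were lower at 0.5 h, with MCM3 at -0.34. Without replicate 2 of growth light 12 of the 14 were lower, where 7.39% of all genes were, and without replicate 1 the count was 1, where 7.61% of all genes were. MCM3 then had adjusted p = 0.115. The replication count at 0.5 h therefore turned on which of these libraries was kept. The 13 mitotic cyclins and CDKs had 0 calls at 0.5 h with both libraries and without replicate 2, and 1 higher without replicate 1. The 17 spindle and cytokinesis genes had 2 higher with both libraries, 2 higher and 2 lower without replicate 2, and 4 higher without replicate 1. Of 12 transcription regulators of the cell cycle 1 was lower and 1 higher at 6 h and at 24 h, below the shares of all genes. The lower one was MYB3R4, an activator of mitotic genes, at 6 h (-0.44 ± 0.12, adjusted p = 0.00387) and at 24 h (-0.39 ± 0.12, adjusted p = 0.00676). At 6 h DPA was higher (0.44). At 12 h 0 of the 12 passed. At 48 h 1 was lower and 2 higher, among them E2FC (0.38), and at 72 h 1 was lower, E2FA (-0.42). These counts were also below the shares of all genes. E2FB was higher at 0.5, 24 and 48 h (0.45, 0.51 and 0.39), and the repressor RBR1 was higher at 0.5 h (0.39). Without replicate 1 of growth light at 0.5 h E2FB was not past the test at that time (0.42, adjusted p = 0.0884), and RBR1 was past it with either library left out. Of 8 genes of the DNA damage response 1 was higher at 6 h, 1 higher and 2 lower at 24 h, 2 higher at 48 h (median 0.18) and 1 higher and 1 lower at 72 h. At 0.5 h and 12 h 0 of the 8 were past edgeR's test, also at an unadjusted p below 0.05, and without replicate 1 of growth light at 0.5 h 1 was higher. Each of these counts in the higher direction was near or below the share of all genes called higher at its time. In recovery against 72 h of high light 3 of 13 mitotic cyclins and CDKs, 3 of 17 spindle and cytokinesis genes and 5 of 14 replication genes were higher, where 18.6% of all genes were called higher, so the spindle share was below and the cyclin share near that of all genes. Among the replication genes were CDT1B (0.77 ± 0.19) and CDT1A (0.59 ± 0.11). KRP6 was lower there (-0.82 ± 0.14). TSO2, CYCD4;1 and CYCD3;3 were above 72 h growth light in recovery, by 1.06 ± 0.10, 1.04 ± 0.20 and 0.65 ± 0.09.

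**Figure D3:**
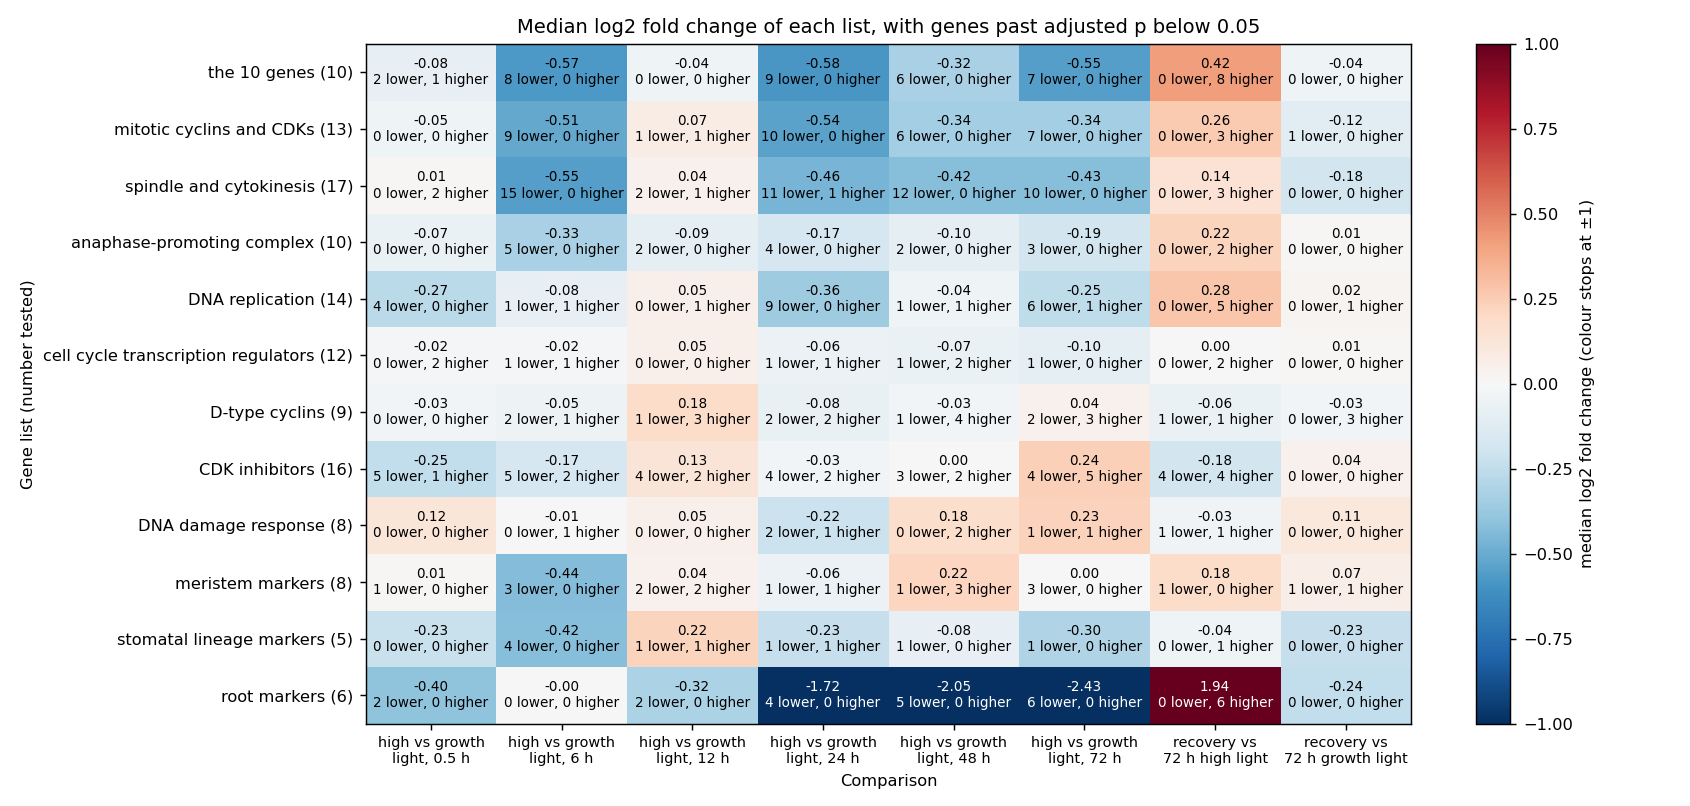
Median log2 fold change (colour, which stops at ±1, and number) of the 10 genes and of 11 gene lists (vertical axis) in 8 comparisons (horizontal axis), with the numbers of genes past the test in each cell. The spindle and cytokinesis list has medians of -0.55 at 6 h and -0.46 at 24 h, and the root markers have -1.72 at 24 h and -2.43 at 72 h.

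Markers of meristems, of the stomatal lineage and of roots were read beside these results. The root list was not limited to dividing cells and includes genes of other root cells, such as root hairs. Of all tested genes 8.29% were called lower at 0.5 h, 18.2% at 6 h and 21.1% at 12 h. The lower share was 23.9% at 24 h, 23% at 48 h and 22.3% at 72 h. In the same order of times, 13.5%, 22.9%, 24.1%, 26%, 24.5% and 22.3% were called higher. In recovery against 72 h of high light 18.6% were called higher. The 6 root markers summed to 32.1 to 73.4 CPM in the growth light libraries, 8.61 to 20.7 CPM in the high light libraries from 24 h to 72 h, and 37.3 and 48.8 CPM in recovery. At 24 h 4 of the 6 were lower, at 48 h 5 and at 72 h all 6, with RHS19, a root hair gene, at -2.69 ± 0.23 at 24 h. In recovery against 72 h of high light all 6 were higher. From 24 h on and in recovery most root markers and most of the 10 genes were called in the same direction. The root list does not show whether dividing root cells changed in number. At 6 h, where 8 of the 10 cell division genes were lower, 0 of the 6 root markers passed edgeR's test, also at an unadjusted p below 0.05, and their median was -0.00, and the sums were 39.9 and 36.5 CPM in high light against 45.7 and 32.1 CPM in growth light. At 12 h, where 0 of the 10 genes passed, 2 of the 6 root markers were lower, RHS19 (-0.89) and CASP1 (-0.79), and the 6 summed to 28.5 and 33 CPM in high light against 57.1 and 38.7 CPM. At 0.5 h 2 of the 6 were lower, RHS19 (-0.91) and COBL9 (-0.74), and the count was 2 without replicate 1 and 1 without replicate 2 of growth light. The 10 meristem markers summed to 137.9 and 145.7 CPM at 6 h of high light against 204.2 and 184.6 CPM in growth light, and 3 of 8 tested were lower, CLV1 (-0.58), SHR (-0.43) and SCR (-0.31). CLV1 and SCR had the largest means in this sum, 63.7 and 46.1 CPM at 6 h of high light, where PLT1 and WOX5 had 1.5 and 1.3 CPM. At 24 h the markers summed to 146.7 and 171.3 CPM against 173.2 and 166.1 CPM, and the groups overlapped. At that time 1 of the 8 was lower and 1 higher, both below the shares of all genes. At 12 h 2 of the 8 were lower and 2 higher. At 48 h 1 was lower and 3 higher (median 0.22), and at 72 h 3 were lower and 0 higher. CLV3 and WUS, which define the stem cell niche of the shoot, reached 2 counts at most in any library and were not tested. The 5 stomatal lineage markers summed to 49.1 and 47.6 CPM at 6 h of high light against 61.9 and 69.5 CPM, with 4 of 5 lower, among them SPCH, which starts the lineage (-0.70, adjusted p = 0.000399). At 24 h they summed to 45.9 and 47.3 CPM against 48.5 and 45.6 CPM, with 1 lower and 1 higher. At 12 h 1 of the 5 was lower and 1 higher, and at 48 h and 72 h 1 was lower and 0 higher. From 12 h on each lower count of this list was near the share of all genes. At 0.5 h its median was -0.23, and it was -0.41 without replicate 2 of growth light and -0.05 without replicate 1. For the meristem markers the 0.5 h median was 0.01, and it was -0.05 without replicate 2 and 0.05 without replicate 1. The part of these tissues in the results for the 10 genes was not tested.

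**Figure D4:**
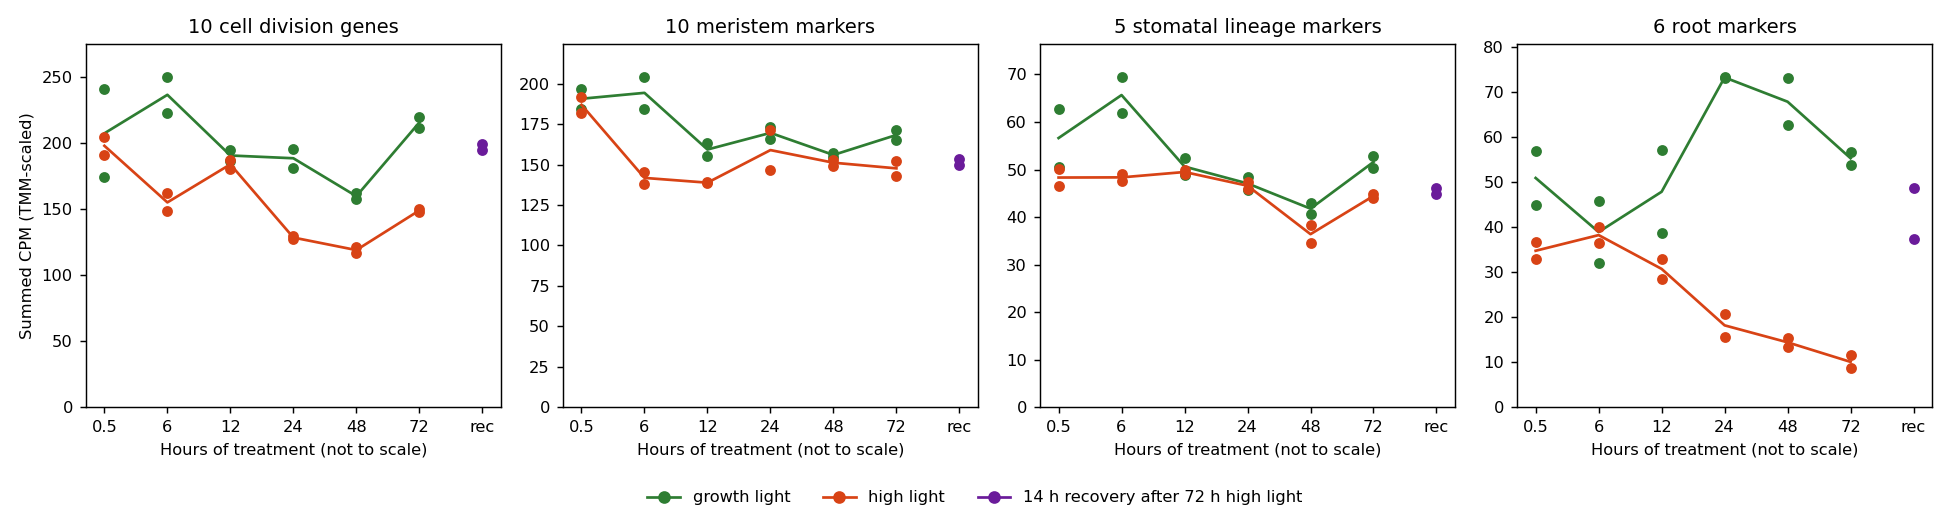
Summed CPM (vertical axis, from 0) of the 10 cell division genes and of the meristem, stomatal lineage and root markers in each library (points; lines are means of 2) against hours of treatment (horizontal axis, not to scale). The 10 genes summed to 127.5 and 129.7 CPM at 24 h of high light against 195.9 and 181.5 CPM in growth light, and the root markers are below 21 CPM in high light from 24 h on.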

How the data were processed

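The 26 RNA-seq libraries were deposited as raw whole-number counts per gene, 1 library per file. The submitters' processing notes name TopHat2 2.1.1, HTSeq 0.6.0, edgeR and the TAIR10 build, but not what each did. The strand rule and the handling of shared reads were not given in the sources at hand, which leaves counts of paralogs, overlapping and antisense genes uncertain. Per the labels' protocols the kit was stranded and reads were single-end. The files hold no coordinates, so sequences were read by locus tag from RefSeq TAIR10.1 with Python 3.11.15 and Biopython 1.88.

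The analysis ran in R 4.3.3 (edgeR 4.0.16, limma 3.58.1). The filterByExpr filter, with groups and a minimum count of 10, kept 21449 genes, and TMM factors lay between 0.924 and 1.09. All 26 libraries entered a single fit, with a mean for each group, 13 residual degrees of freedom and a biological coefficient of variation of 6.54%. Contrasts were tested two-sided by edgeR's quasi-likelihood test, and p-values were adjusted over all tested genes by Benjamini-Hochberg, with calls made below 0.05. Each SE was taken as the absolute log2 fold change over the square root of F. All samples were used.

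The 10 genes and the 11 other gene lists (120 genes, 118 tested) were chosen with earlier results of these data known. From each other list the text names at most 3 genes per comparison, the largest called changes among genes whose higher group reached 5 CPM and whose libraries do not overlap. A gene named in 1 comparison may be given in others. Comparisons of neighbouring times within high light were added after the values were seen. For profile likeness the prior count in log2 CPM was 2. Replicate numbers do not pair the samples.

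The alternatives replaced TMM by median-ratio or upper-quartile factors, dropped the filter or asked for 1 CPM in 2 libraries, used the Wald test of DESeq2 1.42.0, added a replicate block, fitted the compared groups alone, added a 1.5-fold threshold, or left out 1 library at a time.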

Additional observations from a re-analysis of the deposited data

Results flagged for a closer look

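For these genes the effect of high light differed between neighbouring times by edgeR's test of the difference itself. Values are changes of the log2 fold change of high light against growth light, each with 2 libraries in each of the 4 groups. From 0.5 to 6 h it became lower by the test for CYCB1;1 (-0.73), CYCB1;2 (-0.83), CYCB2;3 (-0.77), CDC20.1 (-0.62), CDKB2;1 (-0.41) and KNOLLE (-0.84). Of the 8 fits with 1 library left out, the call was lost in 6 for CYCB1;1 (adjusted p from 0.0521 to 0.214), in 4 for CDKB2;1, in 3 for CDC20.1 and in 0 for the other 3, and the same 3 calls were lost when only the compared groups were fitted. From 6 to 12 h it became higher for CYCB1;2 (0.80), CDC20.1 (0.72), CDKB1;2 (0.89) and KNOLLE (0.81). Here 4 of the 8 left-out fits lost the call of CDC20.1, 2 that of CDKB1;2 and 0 the other 2. From 12 to 24 h it became lower for CYCB1;2 (-0.54), CYCB2;3 (-0.56), CDC20.2 (-0.44), CDKB1;2 (-0.91), CDKB2;1 (-0.57) and PCNA1 (-0.58). The CDC20.2 call was lost in all 8 left-out fits (adjusted p from 0.0561 to 0.156), with DESeq2, with no filter, with at least 1 CPM in 2 libraries and with only the compared groups. The CYCB2;3 call was lost in 5 of the 8, with DESeq2 and with only the compared groups, and the CYCB1;2 call in 4 of the 8. Those of CDKB1;2, CDKB2;1 and PCNA1 were lost in 0 of the 8. From 24 to 48 h it became higher for PCNA1 (0.40), a call lost in 7 of the 8 and with DESeq2. In growth light at 0.5 h, 1 library lay below the other for all 10 genes, and growth light levels at 6 h also enter the first 2 of these steps.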

How the results depend on the processing

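Among fold changes of the 10 genes that were called in either fit, 0 changed sign under an alternative. Uncalled values did so 72 times, the largest being 0.25 in size. At 0.5 h CYCB1;1 (0.25) became -0.14, CDKB2;1 (0.06) -0.08 and KNOLLE (0.01) -0.23 without replicate 2 of growth light, and CYCB1;2 (-0.04) became 0.23, CDKB1;1 (-0.13) 0.15 and CDKB1;2 (-0.17) 0.26 without replicate 1. Of 2729 fold changes of the 10 genes recomputed under the alternatives, 2489 stayed on the same side of the threshold, 197 lost their call and 43 gained one. An added 1.5-fold threshold removed the most calls. Under it the 10 genes had 0 higher and 0 lower at 0.5 h (1 and 2 without it), 5 lower at 6 h (8), 5 at 24 h (9), 2 at 48 h (6), 4 at 72 h (7) and 1 higher in recovery against high light (8). The change of the light effect kept 1 lower from 12 to 24 h (6) and 0 higher from 24 to 48 h (1). Growth light kept 0 higher from 0.5 to 6 h, 0 lower from 6 to 12, 12 to 24 and 24 to 48 h, and 2 higher from 48 to 72 h. High light kept 0 higher and 3 lower from 0.5 to 6 h, 0 higher from 6 to 12 h, 2 lower from 12 to 24 h and 1 higher from 48 to 72 h. All genes past it numbered 2526 at 0.5 h, 3940 at 6 h, 4481 at 12 h, 5492 at 24 h, 4961 at 48 h, 5004 at 72 h, 3801 in recovery against high light and 1168 against growth light, where the main counts were 4671, 8823, 9691, 10685, 10184, 9567, 7961 and 2489. These totals are in either direction, out of 21449 tested genes. Shares by direction, or for the time steps, were not computed under this threshold. The counts of the 10 genes under it therefore cannot be read as above the share of all genes.

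At 0.5 h the 1 higher call became 0 with upper-quartile factors, with no filter, with at least 1 CPM in 2 libraries, with DESeq2 and with only the groups of the comparison, and the 2 lower calls became 1 with DESeq2 and 0 with only those groups. DESeq2 also gave 0 higher for the 24 to 48 h change, 0 lower in growth light from 12 to 24 h, 1 lower from 24 to 48 h, and 1 higher in high light from 6 to 12 h. Median-ratio and upper-quartile factors gave 0 lower in growth light from 12 to 24 h. With no filter high light had 4 higher from 6 to 12 h and 5 from 48 to 72 h. With only the groups of the comparison, all genes called were 2991 at 0.5 h and 4513 in recovery against growth light, and the 10 genes had 3 lower in that recovery comparison, 3 lower for the 0.5 to 6 h change, 0 higher in growth light from 0.5 to 6 h, 0 lower from 12 to 24 h and 5 higher in high light from 48 to 72 h. For each of these the cause was not tested.

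Same-numbered libraries did not deviate together (correlations from -0.144 to 0.0402 over 8 comparisons). With the replicate block, the lower calls at 0.5 h went from 2 to 1, and no other count of the 10 genes moved by over 1.5 times.

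With 1 library left out, the calls ranged as follows. At 0.5 h they were 0 to 2 higher and 0 to 5 lower. At 6 h 6 to 8 were lower, at 24 h 8 to 9, at 48 h 4 to 5 and at 72 h 5 to 6. In recovery against high light 4 to 5 were higher. For the changes of the light effect 3 to 8 were lower from 0.5 to 6 h, 2 to 4 higher from 6 to 12 h, 3 to 6 lower from 12 to 24 h and 0 to 1 higher from 24 to 48 h. In growth light 0 to 7 were higher from 0.5 to 6 h, 0 to 3 lower from 6 to 12 h, 0 to 0 lower from 12 to 24 h, 0 to 1 lower from 24 to 48 h and 1 to 2 higher from 48 to 72 h. In high light 5 to 6 were lower from 0.5 to 6 h, 0 to 1 higher from 6 to 12 h, 7 to 8 lower from 12 to 24 h and 1 to 2 higher from 48 to 72 h. All genes called ranged from 3403 to 4282 at 0.5 h and from 1039 to 1377 in recovery against growth light, and from 5972 to 6185 in recovery against high light. With 2 libraries per group, a lone library was assumed to vary like the other groups.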
